A study of Mus musculus with 12 samples.

Results

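The genes of fatty acid activation and oxidation were examined in J774A.1 cells, a mouse macrophage line, that were WT or lacked ACAT1 and were unstimulated or stimulated with LPS. The set was a list of 34 gene symbols grouped by function, and 33 of them were found among the 16699 genes counted in both states. Expression of the remaining member, Pparg, was not analysed here. The 33 genes comprised 4 acyl-CoA synthetases, 4 genes of the carnitine shuttle, 8 acyl-CoA dehydrogenases, 5 enzymes of the later mitochondrial steps, 3 enzymes for double bonds, 3 genes of electron transfer, 4 peroxisomal genes and 2 regulators.

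RNA-seq compared 4 groups of 3 libraries each. They were unstimulated WT, unstimulated ACAT1 KO, WT after 2 hours of LPS at 100 ng/ml and ACAT1 KO after the same LPS stimulation. All lines had received a vector that expresses Cas9 with GFP and had been sorted for GFP and expanded from clones. The ACAT1 KO vector also carried a guide RNA to exon 4 of Acat1, and the WT vector carried no guide. Acat1 encodes a mitochondrial acetyl-CoA acetyltransferase. The paper describes it as a distal enzyme in the breakdown of fatty acids, isoleucine and ketone bodies. The 3 libraries of a group came from 3 different clonal lines, with no repeat library of a line within a group. A difference between genotypes is therefore measured against the spread between libraries, in which effects of clone, culture and library cannot be told apart. In bulk RNA, fewer expressing cells and less RNA per cell cannot be told apart either.

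Acat1 itself was at 108.4, 107.1 and 80.8 CPM (counts scaled to library size after TMM normalization) in the 3 unstimulated WT libraries and at 28.9, 25.5 and 26.1 CPM in the 3 ACAT1 KO libraries, and every KO library also lay below every WT library after LPS. Totals ran from 56948593 to 167280149 counts per library, and 3 unstimulated libraries (WT 1, WT 2 and KO 2) had the lowest totals. The 33 genes held from 0.185% to 0.217% of the counts of a library. The 8 macrophage markers were all counted, with a summed level from 8984 to 11670 CPM. Of these 8, Adgre1 (0.58-fold) and Fcgr1 (0.62-fold) were called lower in unstimulated KO cells, and after LPS 1 was lower and 2 were higher. By contrast, 0 of 4 epithelial markers and 1 of 4 markers each for T cells, B cells, fibroblasts and neutrophils were listed in both states. The neutrophil marker, S100a8, was at 2.05 to 5.14 CPM. The fibroblast marker, Pdgfra, was at 1.14 to 1.67 CPM in unstimulated and at 5.53 to 12.9 CPM in LPS libraries, and its part in the LPS results was not tested. After LPS, 7 of 7 tested response genes, among them Cxcl10, Acod1 and Il6, were higher in both genotypes.

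A fatty acid is first joined to coenzyme A by an acyl-CoA synthetase at the outer mitochondrial membrane, the endoplasmic reticulum or lipid droplets. Long acyl chains then enter mitochondria as carnitine esters, made by CPT1, carried by SLC25A20 and returned to coenzyme A by CPT2. Each turn of beta-oxidation dehydrogenates, hydrates, dehydrogenates again and cleaves the chain, releasing acetyl-CoA and passing electrons through ETF to the respiratory chain. Peroxisomes shorten very long and branched chains, and receptors of the PPAR family with the coactivators of the PGC-1 family are known regulators of these genes. In macrophages, LPS is known to favour glycolysis, and acyl-CoA synthetase 1 is a known LPS-responsive gene.

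RefSeq promoter windows on GRCm38.p6, each from 250 bases before to 50 bases after a transcription start, were matched for 29 of the 34 genes, with 33 windows. The windows of Acsl1, Acsl3, Cpt1a, Echs1 and Eci2 are shown because these genes changed by more than 1.5 times after LPS in both genotypes, as did Ppargc1b, whose window is not shown. That of Hadhb is shown because it overlaps the window of Hadha. Capitals mark AGGTCA, the core letters of a nuclear receptor element, on either strand. Acsl1 has 2 windows, on the plus strand of chromosome 8, where the first belongs to the upstream start. The windows of Cpt1a and Eci2 lie inside the gene spans given below, downstream of the outermost annotated starts, which they do not cover.

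Acsl1, chr8:46470787-46471086, plus strand: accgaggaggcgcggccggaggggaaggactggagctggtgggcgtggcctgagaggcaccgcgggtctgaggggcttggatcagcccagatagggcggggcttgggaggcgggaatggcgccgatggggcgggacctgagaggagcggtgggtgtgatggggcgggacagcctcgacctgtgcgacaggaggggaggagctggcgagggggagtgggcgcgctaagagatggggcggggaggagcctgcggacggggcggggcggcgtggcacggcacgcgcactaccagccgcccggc

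Acsl1, chr8:46490716-46491015, plus strand: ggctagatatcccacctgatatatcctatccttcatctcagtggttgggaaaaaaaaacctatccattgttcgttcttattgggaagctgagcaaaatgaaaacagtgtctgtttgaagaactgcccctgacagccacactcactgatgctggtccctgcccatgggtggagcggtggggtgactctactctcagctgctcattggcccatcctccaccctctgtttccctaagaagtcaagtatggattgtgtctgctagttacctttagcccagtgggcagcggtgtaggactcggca

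Acsl3, chr1:78657575-78657874, plus strand: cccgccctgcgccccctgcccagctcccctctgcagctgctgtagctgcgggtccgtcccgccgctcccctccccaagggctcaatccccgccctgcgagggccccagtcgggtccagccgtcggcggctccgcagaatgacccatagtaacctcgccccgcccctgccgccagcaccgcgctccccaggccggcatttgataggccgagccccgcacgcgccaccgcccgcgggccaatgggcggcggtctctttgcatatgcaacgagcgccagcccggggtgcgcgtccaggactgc

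Cpt1a, chr19:3323051-3323350, plus strand: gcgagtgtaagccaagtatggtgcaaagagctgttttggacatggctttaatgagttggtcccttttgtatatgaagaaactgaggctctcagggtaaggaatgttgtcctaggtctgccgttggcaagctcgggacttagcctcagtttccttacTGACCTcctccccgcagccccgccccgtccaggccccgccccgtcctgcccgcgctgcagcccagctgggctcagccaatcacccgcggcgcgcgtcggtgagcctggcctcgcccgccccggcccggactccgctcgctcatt

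Echs1, chr7:140116372-140116671, minus strand: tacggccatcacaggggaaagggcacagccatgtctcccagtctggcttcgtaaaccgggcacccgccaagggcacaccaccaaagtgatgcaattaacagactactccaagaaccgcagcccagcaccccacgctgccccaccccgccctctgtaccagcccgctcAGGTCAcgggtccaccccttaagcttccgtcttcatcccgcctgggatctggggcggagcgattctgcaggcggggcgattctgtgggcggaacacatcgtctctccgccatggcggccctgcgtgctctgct

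Eci2, chr13:34994095-34994394, minus strand: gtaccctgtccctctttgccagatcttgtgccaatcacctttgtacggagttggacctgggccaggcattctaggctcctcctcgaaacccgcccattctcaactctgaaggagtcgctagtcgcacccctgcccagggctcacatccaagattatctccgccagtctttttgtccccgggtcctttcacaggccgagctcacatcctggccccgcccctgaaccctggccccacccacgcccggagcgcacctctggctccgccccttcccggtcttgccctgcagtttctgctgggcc

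Hadhb, chr5:30155003-30155302, plus strand: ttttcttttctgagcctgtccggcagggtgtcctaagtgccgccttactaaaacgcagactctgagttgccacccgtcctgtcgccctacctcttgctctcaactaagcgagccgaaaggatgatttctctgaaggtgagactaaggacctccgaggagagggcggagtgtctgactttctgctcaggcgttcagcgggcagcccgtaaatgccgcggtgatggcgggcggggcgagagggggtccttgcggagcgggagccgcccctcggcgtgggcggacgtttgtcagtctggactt

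AGGTCA, searched on both strands, was found in 6 of the 33 windows (18.2%), in Acadm, Acadvl, Cpt1a, Echs1 and 2 windows of Pparg, against 16.3% of all 32841 mouse windows of the same length. Cpt1a, which was higher after LPS, and Echs1, which was lower, both hold it. The PPAR direct repeat, 2 copies of AGGTCA 1 base apart, was found in 0 of the 33 windows and in 0.0396% of all windows, and the E-box CACGTG in 0 of 33 against 7.15%. These counts say only that the letters are absent from these windows. The windows of Hadha and Hadhb, the subunits of the mitochondrial trifunctional protein, share 228 bases, since the genes point away from each other and their RefSeq starts are separated by 272 bases.

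Levels differed widely within the pathway. As RPKM, which is CPM divided by the kilobases of exon, the highest means in unstimulated WT cells were those of Acsl5 with 74.5, Etfa, a subunit of the electron transfer flavoprotein, with 71.9, and Acadl, the long-chain acyl-CoA dehydrogenase, with 52.0 RPKM. The 4 shuttle genes stood near the bottom of the same order, with Slc25a20 at 5.21, Cpt1a at 5.00, Cpt2 at 4.62 and Slc22a5 at 3.43 RPKM. Among them Slc22a5, the plasma membrane carnitine transporter, was the lowest. Ppargc1b, which encodes the coactivator PGC-1beta, was lowest of all 33 at 1.83 RPKM. Acsl1 rose from 11.5 RPKM in unstimulated WT cells to 66.4 RPKM after LPS, a level between those of Etfa and Acadl before stimulation. The median SD between libraries of a group was 0.0698 to 0.111 on the log2 scale for these genes in the 4 groups. For all genes, which were not matched to them by level, it was 0.0999 to 0.148.

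**Figure D1:**
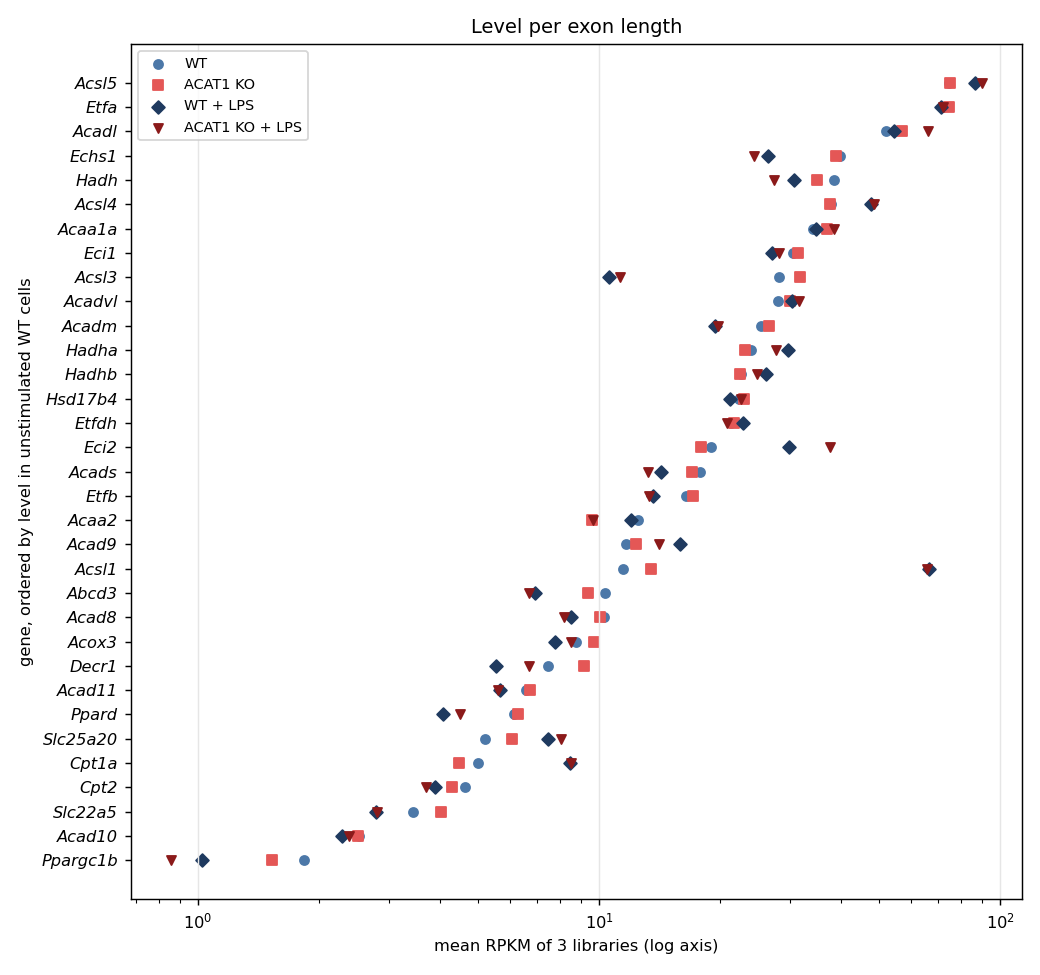
Mean level of each of the 33 genes per exon length (RPKM, log axis) in the 4 groups of 3 libraries, ordered by the level in unstimulated WT cells. Acsl5, Etfa and Acadl head the order and the 4 shuttle genes stand near its end, while Acsl1 (11.5 to 66.4 RPKM in WT) and Acsl3 move far from their unstimulated points after LPS in both genotypes.

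The first comparison asked how LPS changed these genes in each genotype. In WT cells 9 of the 33 genes were higher and 12 lower at an adjusted p under 0.05 (quasi-likelihood test of edgeR, Benjamini-Hochberg adjusted over all genes), where 29.3% of all 16535 genes tested were higher and 28% lower. In ACAT1 KO cells 8 were higher and 13 lower, where 29.5% and 31.2% of all genes were called in those directions. The median log2 fold change of the 33 was -0.13 in WT and -0.08 in KO, against -0.02 and -0.03 for all genes tested. With upper-quartile normalization, which moved the median of all genes to -0.23 in WT and -0.17 in KO, the split was 5 higher and 21 lower in WT and 3 higher and 19 lower in KO. Of all 16535 genes, 3628 were then called higher and 6681 lower in WT, and 3921 higher and 6560 lower in KO. Of the 33 genes, 7 in WT and 6 in KO changed by more than 1.5 times. The share of all genes past that fold was not computed.

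The same 20 genes passed in both genotypes, 8 higher and 12 lower. The share of all genes that passed in both genotypes was not computed, so this count does not set the list apart. Hadhb passed as higher in WT cells and not in KO cells, and Acox3 as lower in KO cells and not in WT cells, but for neither was the difference between genotypes called. With each line as a block, so that a line was compared with itself, both genes passed in both genotypes (adjusted p = 0.0244 for Hadhb in KO and 0.0397 for Acox3 in WT). The pairing of lines rests on the replicate numbers and on correlations between libraries. The remaining 11 genes passed in neither genotype. The WT and KO log2 fold changes gave a Pearson r of 0.98 over the 33 genes, a description of genes that share their libraries, and not a test.

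**Figure D2:**
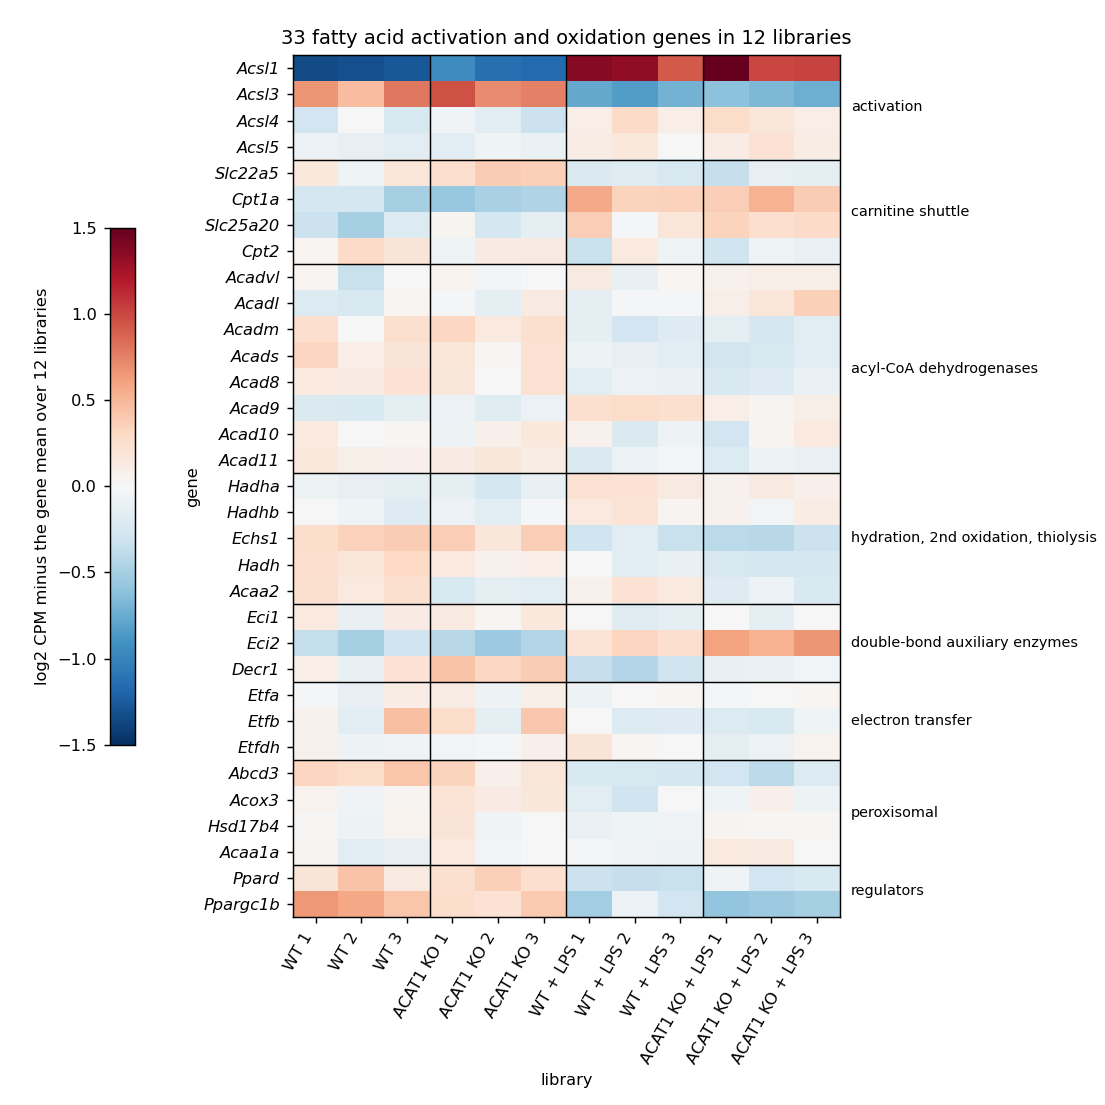
Level of each of the 33 genes (rows, grouped by role) in each of the 12 libraries (columns) as log2 CPM minus the mean of that gene over the 12 libraries. Acsl1 is low in all 6 unstimulated and high in all 6 LPS libraries, Acsl3 is the reverse, and most other rows are pale.

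Activation split between its members. Acsl1, on chromosome 8 from 46471037 to 46536051, encodes a long-chain acyl-CoA synthetase of mitochondria and the endoplasmic reticulum. It was at 46.9, 47.7 and 49.4 CPM in unstimulated WT libraries and at 306.6, 299.1 and 224.6 CPM after LPS, and at 61.6, 54.0 and 52.7 CPM in unstimulated ACAT1 KO libraries against 342.5, 237.2 and 240.4 CPM after LPS. Each LPS library lay far above each unstimulated library. The increase was 5.77-fold in WT (log2 fold change 2.53, standard error 0.155, adjusted p = 6.66e-08) and 4.87-fold in KO (2.28, standard error 0.153, adjusted p = 1.18e-07).

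Acsl3, on chromosome 1 from 78657825 to 78707743, encodes a synthetase of the endoplasmic reticulum and of nascent lipid droplets, and it moved the other way. Its level was 112.7, 97.9 and 123.2 CPM in unstimulated WT libraries and 42.0, 39.7 and 43.4 CPM after LPS. In ACAT1 KO libraries it was 138.2, 116.3 and 120.1 CPM and then 46.5, 44.6 and 42.7 CPM. The groups did not overlap, and Acsl3 fell by 1.42 in WT and by 1.48 in KO on the log2 scale (adjusted p = 9.23e-08 and 5.21e-08).

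The other two synthetases changed little. Acsl4, which prefers arachidonic acid, had log2 fold changes of 0.33 in WT and 0.37 in KO (adjusted p = 0.0105 and 0.00588), and Acsl5, a mitochondrial synthetase and the most abundant of the 33 genes per length, had 0.22 and 0.26 (adjusted p = 0.00871 and 0.00238). With upper-quartile normalization neither gene passed in either genotype. Acsl4 was also not called in WT without unstimulated WT library 1 (log2 fold change 0.25, adjusted p = 0.0609).

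Of the 4 genes of the carnitine shuttle, Cpt1a and Slc25a20 were higher after LPS and Slc22a5 was lower in both genotypes. Cpt1a, on chromosome 19 from 3322334 to 3385733, encodes the liver form of the outer membrane transferase that commits long chains to mitochondria. It was at 22.7, 22.8 and 19.3 CPM in unstimulated WT libraries and 40.5, 34.5 and 34.6 CPM after LPS, and at 18.3, 19.5 and 20.0 CPM in unstimulated KO libraries and 35.3, 39.2 and 35.4 CPM after LPS. The groups were separate in both genotypes, with log2 fold changes of 0.76 in WT and 0.93 in KO (adjusted p = 1.27e-05 and 2.02e-06).

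Slc25a20, the carnitine-acylcarnitine exchanger of the inner membrane, was at 9.40, 8.29 and 10.2 CPM and, after LPS, at 15.1, 11.5 and 13.3 CPM in WT. In KO it was at 12.1, 9.78 and 10.6 CPM and then at 14.8, 13.9 and 14.3 CPM. It rose in both genotypes, with log2 fold changes of 0.51 and 0.41 (adjusted p = 0.00225 and 0.00883), of which the second was 0.26 with upper-quartile normalization (adjusted p = 0.0608). Without the 3 unstimulated libraries of lowest total, which leaves WT 3 as the only unstimulated WT library, the first was 0.36.

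Slc22a5 was at 10.9, 9.37 and 11.2 CPM and, after LPS, at 8.49, 8.67 and 8.34 CPM in WT. In KO it was at 11.7, 12.8 and 12.6 CPM and then at 7.75, 9.02 and 8.88 CPM. Each LPS library was below each unstimulated library of its genotype, and the gene fell by 0.31 and 0.53 on the log2 scale (adjusted p = 0.0121 and 2.96e-04).

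Cpt2, the inner membrane transferase, overlapped between states. It was at 9.90, 11.9 and 11.1 CPM unstimulated and 7.70, 10.8 and 9.32 CPM after LPS in WT, and at 9.30, 10.6 and 10.6 CPM and then 7.89, 9.32 and 9.09 CPM in KO. Its log2 fold changes of -0.24 and -0.21 did not pass (adjusted p = 0.118 and 0.160). With each line as a block they were -0.25 and -0.22 and passed (adjusted p = 0.0102 and 0.0198). With upper-quartile normalization they were -0.45 and -0.36 and also passed (adjusted p = 0.00812 and 0.0245).

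**Figure D3:**
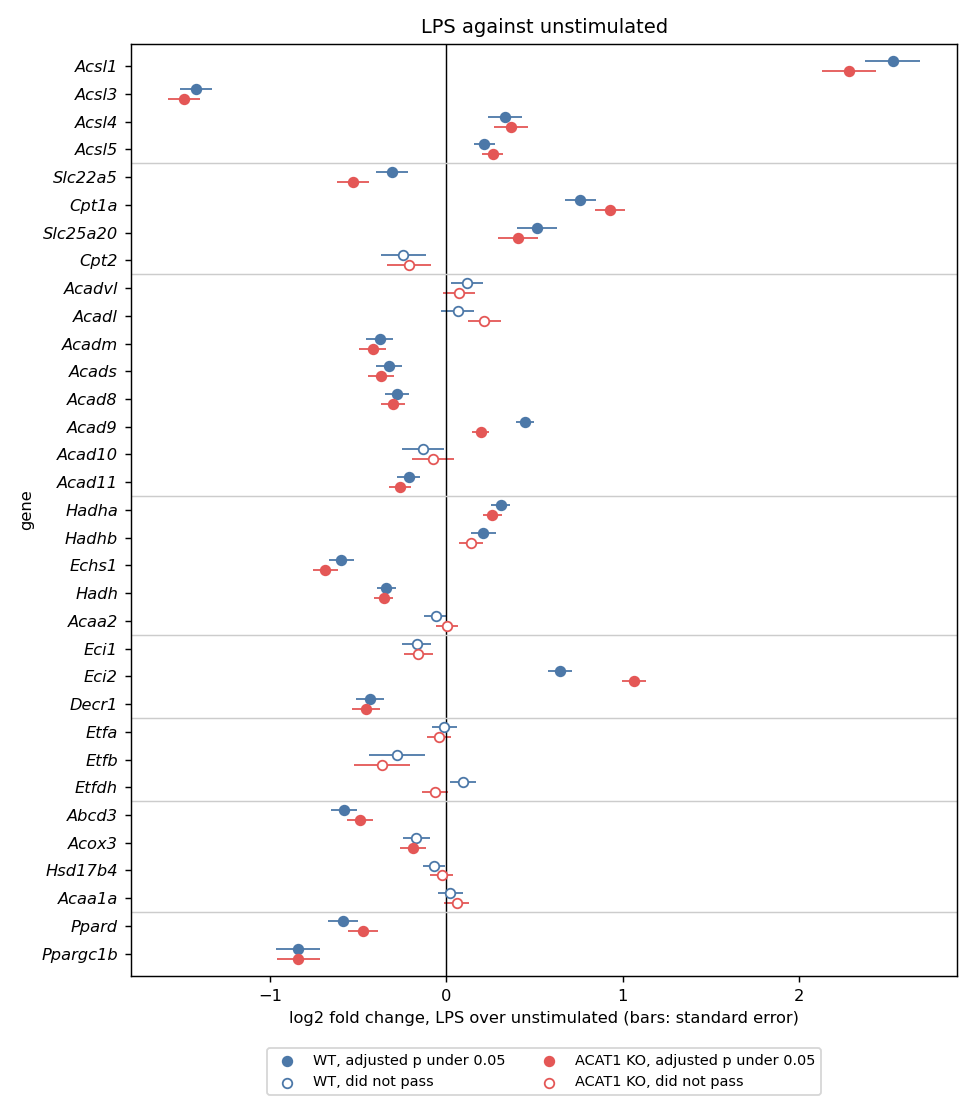
Log2 fold change after LPS of each of the 33 genes in WT and in ACAT1 KO cells, with standard errors, where filled points passed the adjusted threshold. Acsl1 is highest at 2.53 and 2.28 and Acsl3 lowest at -1.42 and -1.48, and for most genes the WT and KO points lie close together.

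Of the 8 acyl-CoA dehydrogenases, which begin each turn of the cycle, 4 were lower after LPS in both genotypes. These were Acadm for medium chains (log2 fold change -0.38 in WT and -0.42 in KO), Acads for short chains (-0.33 and -0.37), Acad8 for a valine intermediate (-0.28 and -0.30) and Acad11 (-0.21 and -0.26). Without the 3 unstimulated libraries of lowest total, which leaves WT 3 as the only unstimulated WT library, Acad11 in WT was at -0.21. Acadvl and Acadl, for long chains, and Acad10 did not pass in either genotype in the main fit. Acadl in KO passed with the line as a block (0.22, adjusted p = 0.0169) and in 3 of 12 fits with a library left out. Acad10 in WT passed in 1 of 4 other settings (relative log expression, upper quartile, no filter and DESeq2). Dvl2, on the opposite strand, overlaps 42.9% of the exon bases of Acadvl, and whether strand was used in counting is not given in the sources used here.

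Acad9, an assembly factor of respiratory complex I with dehydrogenase activity, was the only one of the 8 that was higher. It was at 45.2, 45.0 and 47.6 CPM in unstimulated WT libraries and 62.1, 63.6 and 62.0 CPM after LPS, and at 49.6, 46.3 and 49.4 CPM and then 56.3, 54.1 and 55.9 CPM in KO. The groups were separate in both genotypes, and the log2 fold change was 0.45 in WT (standard error 0.050, adjusted p = 9.65e-06) and 0.19 in KO (standard error 0.049, adjusted p = 0.00483). The KO increase was 0.05 with upper-quartile normalization and did not pass (adjusted p = 0.396).

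The later steps moved in both directions. Echs1, the short-chain enoyl-CoA hydratase, had a mean of 61.9 ± 2.52 CPM (SD, n = 3) in unstimulated WT cells and of 41.0 ± 2.72 CPM (SD, n = 3) after LPS, and it fell by 0.60 in WT and by 0.69 in KO on the log2 scale (adjusted p = 1.62e-05 and 4.40e-06). Hadh, the short-chain hydroxyacyl-CoA dehydrogenase, also fell, by 0.34 and 0.35. Hadha and Hadhb, which perform these steps on long chains, were slightly higher, with log2 fold changes of 0.31 and 0.21 in WT and 0.26 and 0.14 in KO, of which the last did not pass (adjusted p = 0.10). The increases of both genes were not called with upper-quartile normalization, under which Hadhb in WT was at -4.66e-04. The WT call of Hadhb was also lost without unstimulated WT library 3 (log2 fold change 0.16), LPS library 1 of WT (0.20) or LPS library 2 of WT (0.17). Acaa2, the mitochondrial thiolase that ends the turn, had log2 fold changes of -0.06 and 0.00 and did not pass in the main fit. In WT it passed in 1 of the 4 other settings.

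Of the enzymes that prepare double bonds for the cycle, Eci2, an enoyl-CoA isomerase of mitochondria and peroxisomes on chromosome 13 from 34977748 to 35027096, rose after LPS. It was at 33.8, 30.8 and 35.3 CPM in unstimulated WT libraries and 50.2, 54.2 and 51.9 CPM after LPS, and at 32.6, 29.8 and 31.9 CPM and then 65.8, 62.5 and 68.9 CPM in KO. The increase was 1.56-fold in WT (log2 fold change 0.64, adjusted p = 4.92e-06) and 2.09-fold in KO (1.06, adjusted p = 6.53e-08). Decr1, the mitochondrial dienoyl-CoA reductase, fell by 0.43 in WT and by 0.45 in KO on the log2 scale. Eci1, the mitochondrial isomerase, had -0.17 and -0.16 and did not pass in the main fit. It passed with the line as a block (adjusted p = 0.0239 and 0.0262) and in 1 of the 4 other settings in each genotype.

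No gene of electron transfer was called after LPS in the main fit. Etfa, Etfb and Etfdh had log2 fold changes between -0.28 and 0.10 in WT (lowest adjusted p 0.152) and between -0.37 and -0.04 in KO (lowest adjusted p 0.0635). With the line as a block Etfb passed in KO (-0.35, adjusted p = 0.0368). Etfb also passed in 2 of the 4 other settings in KO and in 1 in WT. With a library left out, it passed in 3 of 12 fits in KO and in 1 in WT. Etfa passed in 1 of the 4 other settings in each genotype, and Etfdh in 1 in KO. Gm45233, annotated on the same strand, overlaps 53% of the exon bases of Etfb, so its counts are uncertain.

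Among the peroxisomal genes, Abcd3, a transporter of acyl-CoA into peroxisomes, fell by 0.58 in WT and by 0.49 in KO on the log2 scale. Acox3, an oxidase for branched chains, had log2 fold changes of -0.17 in WT and -0.19 in KO, where the second passed narrowly (adjusted p = 0.0458). Of 12 fits with a library left out, 4 called it, and the log2 fold change was -0.20 without the 3 unstimulated libraries of lowest total. Acox3 in WT passed in 2 of the 4 other settings. Hsd17b4 and Acaa1a did not pass in the main fit, but Hsd17b4 in both genotypes and Acaa1a in WT passed in 1 of those settings. Reads of Acaa1a may be shared with its near-identical copy Acaa1b.

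Both regulators were lower after LPS. Ppard, the nuclear receptor PPAR delta, fell by 0.59 in WT and by 0.47 in KO on the log2 scale. Ppargc1b was at 7.33, 7.0 and 6.22 CPM in unstimulated WT libraries and 3.25, 4.40 and 3.83 CPM after LPS, and at 5.60, 5.44 and 6.15 CPM and then 3.11, 3.20 and 3.30 CPM in KO. All 6 LPS libraries lay below all 6 unstimulated libraries, and its log2 fold change was -0.84 in each genotype (adjusted p = 9.40e-05 in WT and 8.84e-05 in KO).

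The second comparison asked whether loss of ACAT1 changed these genes. In unstimulated cells 0 of the 33 passed edgeR's quasi-likelihood test at an adjusted p under 0.05, where 0.742% of all 16440 genes tested were higher and 1.17% lower. Without adjustment, 5 of the 33 had a p under 0.05, against 19.7% of all genes. With DESeq2 2 of the 33 passed, Acaa2 and Decr1, against 10.5% of all genes. The median log2 fold change of the 33 was 0.04, against 0.00 for all genes, with 21 positive and 12 negative values. The largest difference was 0.37 in size, that of Acaa2.

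Acaa2 was at 19.4, 18.2 and 19.4 CPM in unstimulated WT libraries and at 14.1, 15.0 and 14.6 CPM in ACAT1 KO libraries. The groups did not overlap, and KO minus WT was -0.37 on the log2 scale (standard error 0.070, adjusted p = 0.0532). It was -0.32 among the 3 libraries of lowest total and -0.43 among the other three, but each value rests on a single library of 1 genotype. Acaa2 passed with upper-quartile normalization (-0.39, adjusted p = 0.0498), with DESeq2 (-0.37, adjusted p = 2.22e-04) and with a term for the 3 libraries of lowest total (-0.37, adjusted p = 0.0458). It did not pass with relative log expression, without a filter or with the replicate number as a block (adjusted p = 0.0823), nor in any of 6 fits with a library left out.

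Decr1 was at 22.4, 19.5 and 24.4 CPM in WT and 28.2, 26.0 and 27.3 CPM in KO, again without overlap, and KO minus WT was 0.31 on the log2 scale (standard error 0.094, adjusted p = 0.146). Ppargc1b, with values given above, had -0.25 (adjusted p = 0.320), and Slc22a5 had 0.24 (adjusted p = 0.262). The shuttle genes Cpt1a, Slc25a20 and Cpt2 had -0.15, 0.23 and -0.10 and did not pass either.

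After LPS, 3 of the 33 were higher in ACAT1 KO cells (Eci2, Decr1 and Acadl) and 1 was lower (Acaa2), where 5.93% of all 16483 genes tested were higher and 9.12% lower. Read against these shares, 4 calls among 33 genes do not set the list apart. Their median log2 fold change was 0.03, against 0.00 for all genes.

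Eci2 after LPS was at 50.2, 54.2 and 51.9 CPM in WT and 65.8, 62.5 and 68.9 CPM in KO libraries. Every KO library was higher, the difference was 1.28-fold (log2 fold change 0.36, standard error 0.061, adjusted p = 0.0101) and all 6 fits with a library left out called it. In unstimulated cells the same gene had a log2 fold change of -0.07 (adjusted p = 0.643).

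Decr1 after LPS was at 16.5, 15.5 and 17.1 CPM in WT and 19.5, 19.5 and 20.5 CPM in KO, so that KO exceeded WT by 0.30 on the log2 scale (standard error 0.068, adjusted p = 0.0255). Its groups did not overlap, and the difference was close to the 0.31 seen without stimulation. The call was lost without WT library 2 (0.26, adjusted p = 0.0704) or without KO library 1 (0.31, adjusted p = 0.0678), 2 (0.31, adjusted p = 0.0777) or 3 (0.28, adjusted p = 0.0915).

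Acadl after LPS was at 99.0, 107.3 and 106.7 CPM in WT and 116.5, 124.2 and 139.9 CPM in KO, with no overlap and a difference of 0.30 on the log2 scale (standard error 0.078, adjusted p = 0.0368). In unstimulated cells its libraries overlapped, at 94.9, 92.8 and 111.5 CPM in WT and 107.8, 99.9 and 120.1 CPM in KO (0.14, adjusted p = 0.5003). The call after LPS was lost without each library but KO 1, at log2 fold changes from 0.23 without KO library 3 to 0.33 without WT library 3.

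Acaa2 after LPS was at 17.3, 19.1 and 18.3 CPM in WT and 14.4, 15.5 and 14.0 CPM in KO, a difference of -0.30 on the log2 scale (standard error 0.071, adjusted p = 0.0298) with no overlap. The call was lost without each library but WT 1, at log2 fold changes from -0.34 without KO library 2 to -0.26 without WT library 2. All 4 genes passed with relative log expression, upper-quartile normalization, no filter and DESeq2.

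Acsl1 and Acsl3, with the largest LPS responses, were not called between genotypes. Acsl1 after LPS had a genotype difference of 0.00 (log2) with a standard error of 0.16, the widest of the 4 synthetases, and its 6 libraries ran from 224.6 to 342.5 CPM. For the 4 shuttle genes the range after LPS was -0.06 to 0.13 (lowest adjusted p 0.425).

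**Figure D4:**
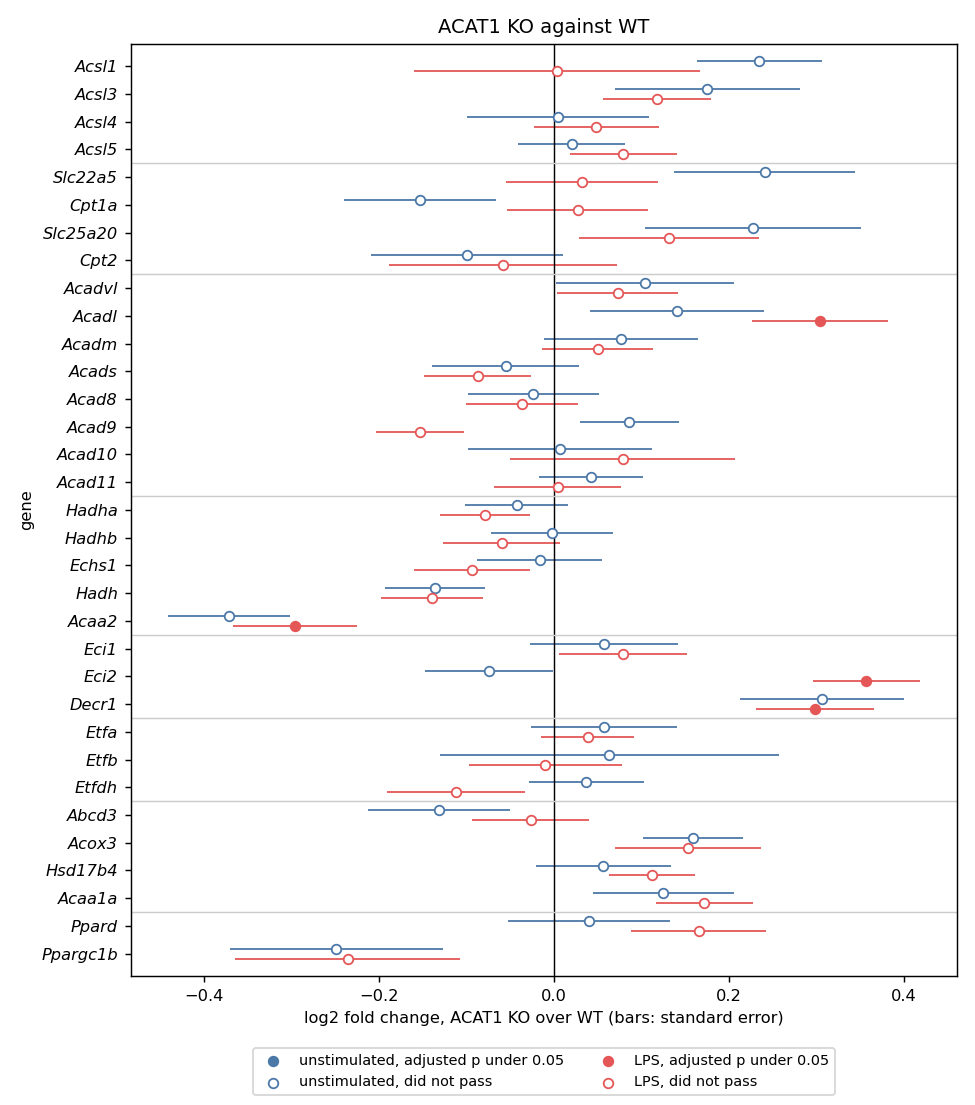
Log2 fold change of ACAT1 KO over WT for each of the 33 genes, unstimulated and after LPS, with standard errors. No unstimulated point is filled, since none passed the adjusted threshold, and after LPS the filled points are Eci2 (0.36), Acadl (0.30), Decr1 (0.30) and Acaa2 (-0.30).

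The third comparison asked whether the LPS response differed between genotypes. None of the 33 genes passed the interaction test of edgeR, where 0.0484% of all 16535 genes had a response called higher in KO and 0.139% lower. At an unadjusted p under 0.05 there were 2 of the 33, Eci2 and Acad9, against 8.92% of all genes. For Eci2 the response was larger in KO by 0.42 on the log2 scale (standard error 0.093, unadjusted p = 8.05e-04, adjusted p = 0.110). The adjusted p was 0.0555 with the line as a block and 0.00366 with DESeq2, by which Eci2 alone of the 33 genes passed, against 2.01% of all genes. For Acad9 the response was smaller in KO, with a difference of -0.25 (standard error 0.070, unadjusted p = 0.00386, adjusted p = 0.203). For Acsl1 it was -0.24 with a standard error of 0.21 (adjusted p = 0.850).

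**Figure D5:**
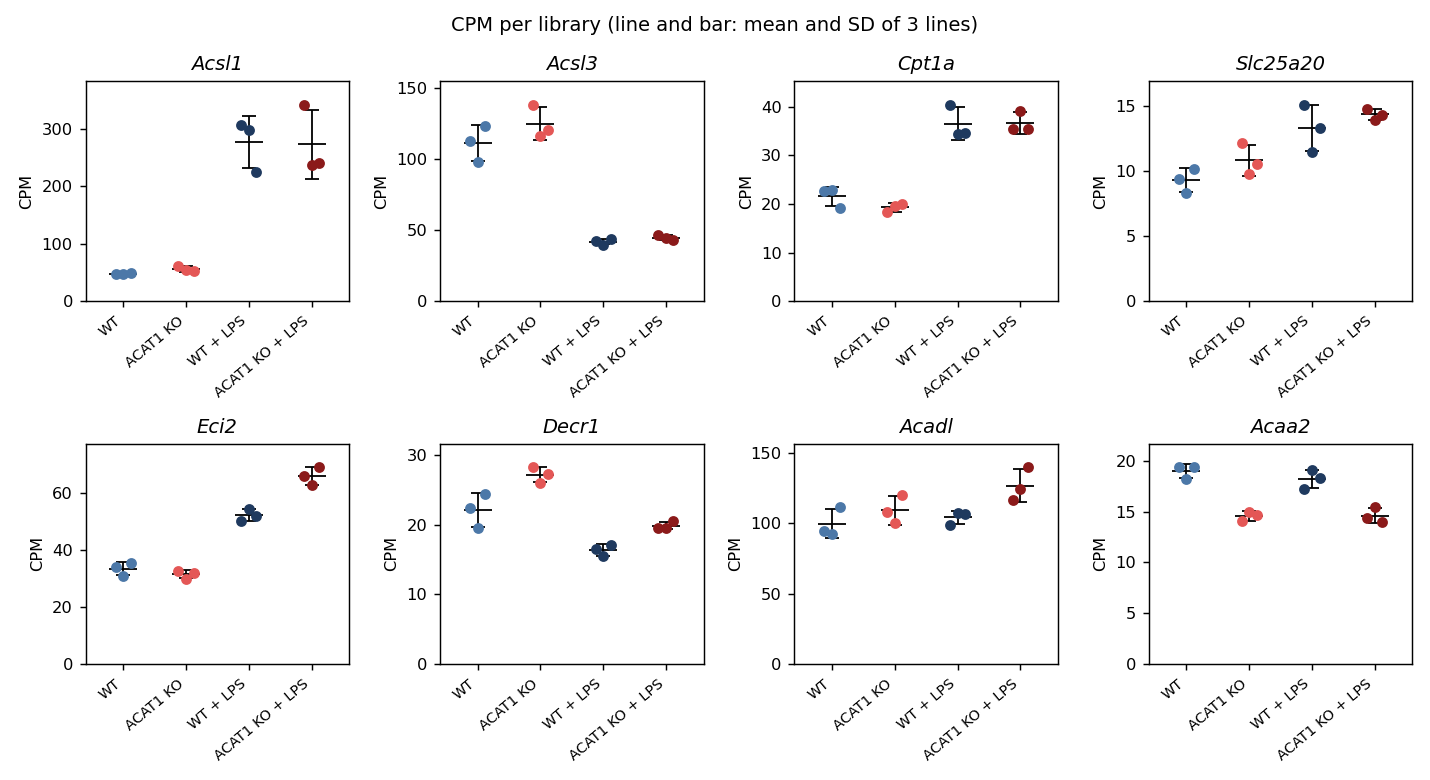
CPM in each library for 8 of the genes, with the mean and SD of the 3 lines of a group, on axes that start at 0. Acsl1, Cpt1a, Slc25a20 and Eci2 are higher and Acsl3 and Decr1 lower after LPS, and Acaa2 is lower in ACAT1 KO libraries in both states.

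A list of 31 further oxidation genes, of which 27 were tested, gave the wider pathway. After LPS 3 were higher and 16 lower in WT, where 29.3% of all genes were higher and 28% lower. In KO 2 were higher and 18 lower, where 29.5% and 31.2% of all genes were called in those directions. The medians were -0.36 in WT and -0.39 in KO, against -0.02 and -0.03 for all genes. The lowest p were those of Abcd2, a peroxisomal transporter of very long chains (log2 fold change -2.43 in WT and -2.63 in KO), Crot, the peroxisomal carnitine octanoyltransferase (-1.25 and -1.38), and Rxra, the partner receptor of the PPARs (-1.37 and -1.45). Crat, the carnitine acetyltransferase, fell by 0.41 and by 0.39 on the log2 scale. Slc27a1, which encodes a fatty acid transport protein, was among the few higher genes (0.65 and 0.52).

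Between genotypes, 0 of the 27 passed in unstimulated cells, where 0.742% of all genes were called higher and 1.17% lower. After LPS Slc27a4 (log2 fold change 0.20) and Rxra (0.31) were higher in KO, and Acsbg1 (-1.32) and Amacr (-0.56) were lower. Of all genes, 5.93% were called higher and 9.12% lower in that comparison. The level of Acsbg1 after LPS was low, at 0.528, 0.618 and 0.416 CPM in WT and 0.244, 0.161 and 0.21 CPM in KO libraries. Cpt1c, the neuronal form of the transferase, was at 1.60, 0.458 and 6.51 CPM in unstimulated WT libraries and at 14.5, 14.6 and 13.7 CPM in KO libraries. It lay higher in each KO library in both states but varied between WT lines, and its log2 fold changes of 2.31 and 2.18 did not pass (adjusted p = 0.190 and 0.0580).

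A list of 10 genes known as PPAR targets gave 7 that were tested. After LPS 2 were higher and 5 lower in WT, and 2 were higher and 4 lower in KO, against the shares of all genes given above. Those higher in both genotypes were Plin2, a lipid droplet coat protein (0.72 in WT and 0.99 in KO), and Fabp4 (1.10 and 1.52), while Angptl4, an inhibitor of lipoprotein lipase, fell by 3.38 and by 4.01 on the log2 scale. In ACAT1 KO cells Fabp5 was lower in both states (-0.79, adjusted p = 0.0368, and -0.70, adjusted p = 0.00834), and after LPS Lpl, the lipoprotein lipase, was higher (0.88, adjusted p = 0.0245) and Acot2 was lower (-0.86, adjusted p = 0.00480). Acot2 lies on chromosome 12, where the median of 584 genes after LPS was -0.28 and 252 of them were called, and its part in that shift was not tested. None of the 33 genes lies on chromosome 12.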

How the data were processed

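RNA-seq of 12 libraries from 3 WT and 3 ACAT1 KO lines was analysed. According to the paper and the submitters' processing notes, the authors used Trimmomatic 0.33 for trimming, HISAT2 for alignment to GRCm38 and StringTie for gene quantification. The counts the authors deposited are whole numbers per gene, not normalized, in 1 table for each state, and the step that gave whole counts and its use of strand are not given in the sources used here. The deposited tables also hold 12 columns of log2 values per library and, from the authors' own comparisons, log2 fold changes, p-values, adjusted p-values and scores, none of which were used. Repeated entries of a gene (59 and 57) were removed.

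Counts were filtered with filterByExpr, normalized by TMM and tested with edgeR 4.0.16 in R 4.3.3 by its two-sided quasi-likelihood test, at a Benjamini-Hochberg adjusted p under 0.05 over all genes tested. Genotypes were compared within each state, and the LPS responses and the interaction in 1 fit of all 12 libraries with 4 group means. CPM in the text come from the joint normalization over the genes of both tables, and RPKM divide them by the union of coding-transcript exons in GENCODE M21, so RPKM are comparable between genes and CPM are not. No p was computed over a list of genes. The scripts were tested on simulated data. The alternatives were normalization by relative log expression or by the upper quartile, DESeq2 1.42.0, all genes without a filter, the replicate number as a block, a term for the 3 unstimulated libraries of lowest total and each library left out in turn. Leaving out those 3 libraries was chosen after seeing the data. It leaves WT 3 as the only unstimulated WT library, so only effect sizes are given for it.

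The members and the other gene lists were chosen with earlier results of these data known. Genes given in every library are members past the threshold between genotypes or in the interaction, the 3 members with the largest absolute log2 fold change in each of the 5 contrasts, and the shuttle genes Slc22a5, Cpt1a, Slc25a20 and Cpt2. Of the other lists, at most 3 genes with the smallest p per contrast, plus Crat, Slc27a1, Cpt1c, Plin2, Fabp4 and Angptl4, were named, those from Crat on after their values were seen.

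The replicate number was taken to pair the unstimulated and LPS libraries of a line. The labels do not say so. Over 11961 genes, the deviations of paired libraries had correlations of 0.152 to 0.446, above 0.1 in all 6 pairs. Same-numbered WT and KO libraries, which are different lines, ran from -0.388 to 0.747, and libraries of unlike number were not compared. These correlations alone therefore do not settle the pairing. Libraries held 56948593 to 167280149 counts, so that the spread between libraries, in which clonal line and library effects were not separated, limits the precision. With 3 against 3 lines the exact permutation test of a single gene cannot go below p = 0.100.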

Additional observations from a re-analysis of the deposited data

Results flagged for a closer look

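Among the genes listed beside the 33 members, 2 cell type markers had an LPS response that differed between genotypes by the interaction test. For the macrophage marker Adgre1 the difference was 0.83 on the log2 scale (adjusted p = 0.0423), with means of 74.0 CPM in WT and 42.7 CPM in ACAT1 KO cells without stimulation and of 157.5 and 161.6 CPM after LPS. For the fibroblast marker Pdgfra it was 1.22 (adjusted p = 0.0383), with means of 1.45 and 1.23 CPM without stimulation and of 6.06 and 11.9 CPM after LPS.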

How the results depend on the processing

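For the genotype comparison in unstimulated cells the count among the 33 genes was 0, and 1 with upper-quartile normalization, 2 with DESeq2 and 1 with a term for the 3 libraries of lowest total. The count over all genes was 314, and 1721 with DESeq2, 664 with that term, 66 without those 3 libraries and 151 with the replicate number as a block. For the interaction the counts were 0 among the 33 (1 with DESeq2) and 31 over all genes, with 333 by DESeq2 and 288 with the replicate block. The cause was not tested. Deviations of same-numbered WT and KO libraries correlated at -0.39, 0.75 and 0.73 without stimulation and at 0.16, 0.19 and -0.10 after LPS. Whether replicate numbers pair libraries across genotypes was therefore not settled. With the line as a block no LPS call among the 33 was lost, and Cpt2 and Eci1 in both genotypes, Acox3 in WT, and Acadl, Etfb and Hadhb in KO were added.

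Leaving out each library in turn, the count among the 33 stayed at 0 for the unstimulated genotype comparison and the interaction, and ran from 1 to 3 for the genotype comparison after LPS, from 20 to 23 for LPS in WT and from 20 to 22 in KO. Over all genes the unstimulated genotype count was 17, 7 and 522 without WT library 1, 2 or 3 and 24, 34 and 10 without KO library 1, 2 or 3. After LPS it fell from 2481 to 1183 without WT 2 and to 1020, 867 and 1034 without KO 1, 2 or 3, and was at most 2245, without WT 1. It ran from 2 to 41 for the interaction, and for LPS from 8636 to 9676 in WT and from 8978 to 10224 in KO.

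Upper-quartile normalization moved the LPS median of the 33 to -0.34 in WT and -0.23 in KO, where 25 and 24 of the 33 values were then negative, against 20 in each, and it turned Hadhb in WT to -4.66e-04. Of all 16535 genes, 10567 in WT and 9859 in KO were negative under that setting, against 8459 and 8492 in the main fit. The reversals found by leaving out 1 library were of values not called. After LPS the genotype difference of Cpt1a ran from -0.022 to 0.10 (-0.010 without WT 2 and -0.00136 without WT 3), that of Cpt2 from -0.17 to 0.064 (0.013 without KO 1) and that of Slc22a5 from -0.00589 to 0.098. The interaction of Cpt2 ran from -0.086 to 0.15 (-0.031 without unstimulated WT 2 or KO 1 and -0.017 without LPS library KO 2), and Hadhb in WT from 0.16 to 0.25 with no sign change.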
